A study of Mus musculus with 4 samples.

Results

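Igf2r, its antisense partner Airn and 7 named neighbors on chromosome 17 were examined in the liver mRNA of mouse F1 hybrids, to see how far along the chromosome allele use followed the parent of origin. The 9 genes were chosen by name (Igf2r, Airn, Slc22a2, Slc22a3, Mas1, Pnldc1, Mrpl18, Tcp1 and Wtap). Of these, 4 were among the 8797 genes listed with an FPKM in every mouse (Igf2r, Mrpl18, Tcp1 and Wtap), and 3 of those 4 (all but Mrpl18) were among the 3632 genes with a B6-allele frequency. Airn, Slc22a2, Slc22a3, Mas1 and Pnldc1 were not among the listed genes and were not analysed here. To cover the ground between and beyond the named genes, other listed genes within 3 Mb of Igf2r were added. The 22 genes described, members included, comprised 19 with a frequency, and besides Igf2r 3 of these lay on its lower-coordinate side and 15 on the other.
All 4 mice were females of 5 months of age from crosses between the inbred strains C57BL/6J, called B6, and MSM/Ms, called MSM, which belong to different subspecies. In 2 mice the mother was MSM and the father B6 (MSM-mother mice), and in the other 2 the mother was B6 and the father MSM (B6-mother mice). FPKM is the number of mapped fragments scaled to transcript length and library size, and the B6-allele frequency is the number of B6 reads of a gene divided by all its reads that could be assigned to either strain. The depth behind either value is unknown, because the deposited tables hold no read counts, and the labels do not say whether mice of a cross were littermates. The lowest mean FPKM of a listed gene was 2.50, the FPKM summed over listed genes was 529024 to 671875 per mouse, and the median frequency was 0.509 to 0.512. Of the hepatocyte markers, 4 of 5 were listed (Apoa1, Ttr, Fgb and Serpina1a, at a summed FPKM of 13500 to 17760), and albumin was not among the listed genes.

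Igf2r encodes the cation-independent mannose 6-phosphate receptor, which sorts lysosomal enzymes and takes up IGF2 for degradation, and it is a classic imprinted gene that most mouse tissues express from the maternal chromosome. On the paternal chromosome the long noncoding RNA Airn is transcribed across the Igf2r promoter from a start inside Igf2r, next to a CpG-rich element that is methylated on the maternal chromosome. In extraembryonic tissue this silencing is known to reach Slc22a2 and Slc22a3. In a reciprocal cross, an allele chosen by strain gives the same B6-allele frequency whichever strain is the mother, whereas an allele chosen by parent of origin turns the frequency around.

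In mm10 (GENCODE M21 annotation), Igf2r lies on the minus strand at chr17:12682406-12769664, and its transcript with the most exons, 48, is Igf2r-201. Airn lies on the plus strand at chr17:12741311-12860136. Its start falls in intron 2 of Igf2r, 28.4 kb from the Igf2r start site, and its annotated span covers 28.4 kb of Igf2r and 19.1 kb of Mas1 and no part of the 6 other named genes. The reads were aligned with the strand of the library set, but how strand was used in counting is not given in the sources used here, and reads of overlapping genes could be shared. The stretches of reference sequence from which these transcripts start are shown because they define the locus, with each CG dinucleotide in capitals. The promoters are the 250 bases before the RefSeq start site (GRCm38.p6), written 5′ to 3′ on the strand of the gene, Igf2r at chr17:12769707-12769956 and Airn at chr17:12741061-12741310. The third is the window of 300 bases in Igf2r intron 2 with the most CG, chr17:12741732-12742031, on the plus strand.
Igf2r promoter: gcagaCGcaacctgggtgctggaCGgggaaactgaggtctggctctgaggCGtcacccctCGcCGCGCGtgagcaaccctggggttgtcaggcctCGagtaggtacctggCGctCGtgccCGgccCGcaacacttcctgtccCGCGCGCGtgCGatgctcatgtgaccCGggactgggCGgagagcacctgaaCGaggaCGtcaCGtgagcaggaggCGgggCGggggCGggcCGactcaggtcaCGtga
Airn promoter: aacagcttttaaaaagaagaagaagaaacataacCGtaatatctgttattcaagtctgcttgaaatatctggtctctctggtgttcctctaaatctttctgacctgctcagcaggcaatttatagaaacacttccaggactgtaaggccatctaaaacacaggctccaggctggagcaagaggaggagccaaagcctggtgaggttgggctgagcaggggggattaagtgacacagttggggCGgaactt
CG-rich window of intron 2: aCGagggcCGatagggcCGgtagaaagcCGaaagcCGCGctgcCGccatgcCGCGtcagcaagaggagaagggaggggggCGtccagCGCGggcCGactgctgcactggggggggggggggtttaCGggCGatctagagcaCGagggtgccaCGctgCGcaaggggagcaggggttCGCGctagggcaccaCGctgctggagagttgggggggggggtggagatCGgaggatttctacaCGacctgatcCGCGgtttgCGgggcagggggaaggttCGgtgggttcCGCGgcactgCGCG
The Igf2r promoter held 27 CG, a number that 8.56% of 32851 RefSeq promoters of the same length reached. The Airn promoter held 2 CG, which 81.2% of promoters reached. The CG-rich window begins 421 bases downstream of the Airn start and held 31 CG, against a median of 2 over all 300-base windows of the intron.

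**Figure D1:**
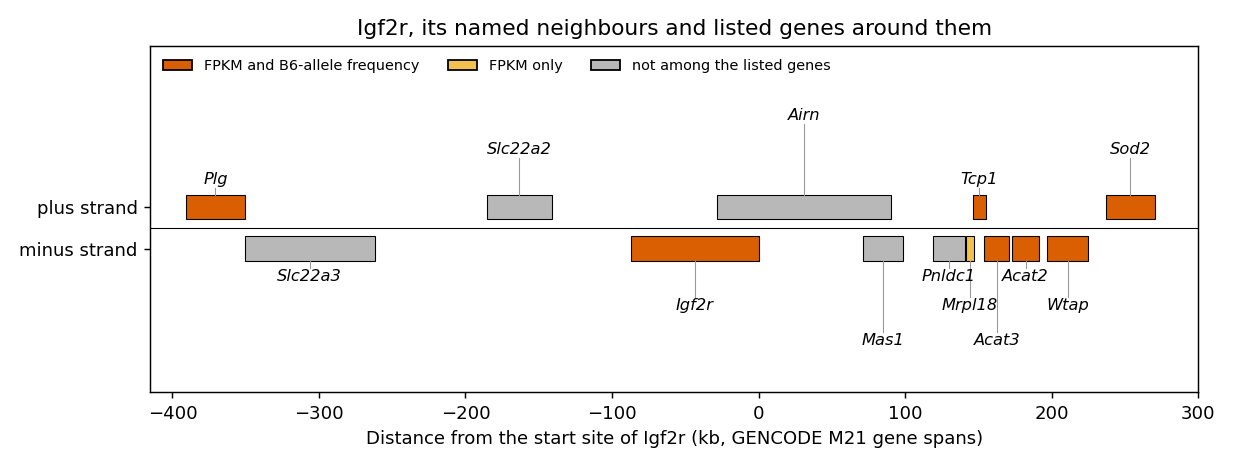
Gene spans around Igf2r, drawn to scale in kb from its start site, with plus-strand genes above the line and minus-strand genes below. Only the 9 named genes and listed genes described here within 300 kb of Igf2r are drawn, and the 5 gray genes were not among the listed genes.

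Igf2r was read almost only from the maternal chromosome in every mouse. The MSM-mother mice had a B6-allele frequency of 0.00554 (replicate 1) and 0.00134 (replicate 2), and the B6-mother mice had 0.992 (replicate 1) and 0.997 (replicate 2). The paternal allele thus supplied 0.554% and 0.134% of the assigned reads in MSM-mother mice, where it was the B6 allele, and 0.751% and 0.251% in B6-mother mice, where it was the MSM allele. The maternal share averaged 0.996 ± 0.0028 (SD, n = 4 mice). Averaged over the crosses, the frequency was 0.499, and the departure from equal use of the strains was -7.8e-04 with a 95% interval of -0.0230 to 0.0215. The mean of both crosses was thus near 0.5 although no single mouse was.
The difference between the crosses was -13.26 on the log2 odds scale (MSM mother minus B6 mother, SE 0.08, limma adjusted p = 4.8e-04), with no overlap between the mice. Frequencies were limited to 0.01 to 0.99 for this scale, all 4 mice lay beyond the limits, and the value is the largest they allow. The mice of a cross thus had equal values here, and the SE and p rest on the variance that limma shares over genes. On the frequency itself the difference was -0.992 (95% interval -1.04 to -0.947, limma adjusted p = 0.0026). Of the 3632 genes it had the largest difference in this direction. At an adjusted p under 0.05 the crosses differed in 0.0826% of genes, with a higher frequency in B6-mother mice in 0.0551% and in MSM-mother mice in 0.0275%. The call was lost without replicate 2 of the MSM-mother mice and without replicate 2 of the B6-mother mice. In both fits the difference stayed at -13.26, because replicates of a cross had equal values under the limits. These losses thus do not reflect the Igf2r values of replicate 2. The call was also lost when frequencies were limited only within 0.001 of 0 and 1 (-16.36, limma adjusted p = 0.223), while the direction was the same. With 2 mice against 2, an exact permutation test cannot give a p below 0.333.

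**Figure D2:**
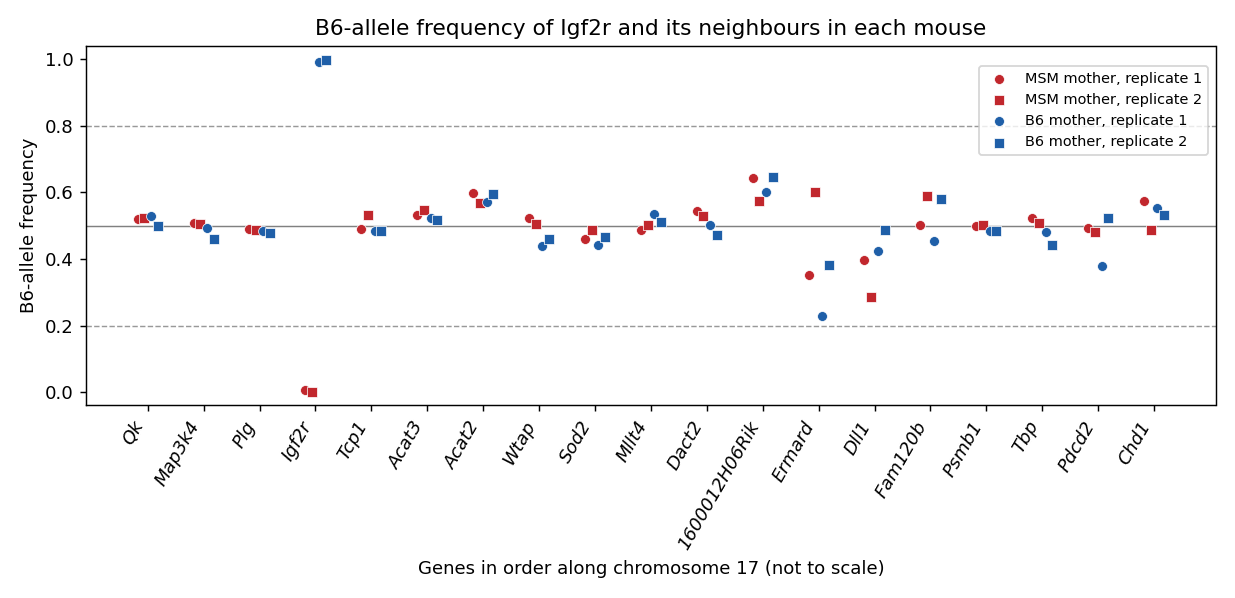
B6-allele frequency of Igf2r and 18 neighbors with a frequency within 3 Mb of it, in chromosome order, with a point for each of the 4 mice. The solid line marks 0.5 and the dashed lines 0.8 and 0.2. Igf2r alone crosses the dashed lines, at the bottom in MSM-mother mice and at the top in B6-mother mice.

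Tcp1, a subunit of the cytosolic chaperonin, lies 146 kb beyond the start site of Igf2r (chr17:12915701-12925067). It had frequencies of 0.489 and 0.533 in MSM-mother mice and 0.485 and 0.483 in B6-mother mice. All 4 values were near 0.5, and the crosses did not overlap. The difference was 0.0271 with an interval of -0.0378 to 0.0919 (limma adjusted p = 0.905). Wtap, a regulatory subunit of the complex that methylates adenosine in mRNA, starts 225 kb from the Igf2r start site (chr17:12966796-12994169). It had 0.523 and 0.505 in MSM-mother mice and 0.439 and 0.459 in B6-mother mice. Here too the crosses did not overlap, but the paternal allele was the one used slightly more, opposite to Igf2r. The difference was 0.0648 (interval 0.0126 to 0.117), with a limma p of 0.0278 before adjustment and 0.873 after it. Before adjustment, 5.23% of all genes had a p under 0.05.

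Tcp1, Wtap and 5 other neighbors with a frequency lay within 400 kb of Igf2r, and the allele use of these 7 genes in single mice ranged from 0.439 to 0.599. Plg, the plasminogen gene, 263 kb away on the lower-coordinate side, had the narrowest interval of these 7 genes. Its frequency was 0.491, 0.487, 0.484 and 0.479 in the mice (MSM mother first), with a difference of 0.00691 and an interval of -0.0375 to 0.0514. Map3k4, a kinase of stress signaling 364 kb away, had 0.507 and 0.505 in MSM-mother mice and 0.494 and 0.460 in B6-mother mice. On the other side, Sod2, the mitochondrial superoxide dismutase, had 0.461 and 0.486 against 0.440 and 0.466. Acat2 and Acat3 are thiolase genes of high similarity whose reads could be exchanged. Acat2 had 0.599 and 0.569 against 0.571 and 0.595, and Acat3 had 0.5315 and 0.548 against 0.523 and 0.517. In none of the 7 genes did the interval of the difference reach beyond 0.117 in size, against 0.992 for Igf2r itself.
Farther out, 11 genes lay between 0.991 and 2.94 Mb from Igf2r, and their frequencies in single mice ranged from 0.227 to 0.645. The precision was lower here. Psmb1, a proteasome subunit 2.71 Mb away, had a difference of 0.0167 (interval -0.0274 to 0.0608), whereas Ermard had 0.353 and 0.60 in MSM-mother mice against 0.227 and 0.381 and an interval of -0.146 to 0.490. Dll1, a Notch ligand, had 0.398 and 0.286 in MSM-mother mice and 0.425 and 0.486 in B6-mother mice, a difference of -0.114 (interval -0.259 to 0.0315). For Ermard and Dll1 the mean FPKM was 4.89 and 2.94, and differences inside their intervals were not detectable with these mice. Tbp, at a mean FPKM of 4.76, had an interval of -0.00955 to 0.116, and Pdcd2, at 14.6, had -0.129 to 0.201. Whether the width of an interval followed the FPKM was not tested.
Over the 18 neighbors, none passed the threshold in limma, 1 (Wtap) had a p under 0.05 before adjustment, and none had a mouse past 0.8 or 0.2, the limits of the study for allele-biased genes. A mouse past those limits was found in 6.97% of all genes. The median size of the difference was 0.0269 in the neighbors and 0.0211 in all genes. The crosses did not overlap in 10 of the 18, compared with 34.3% of all genes. Among the 18, 14 had a higher frequency in MSM-mother mice and 4 in B6-mother mice, compared with 1865 and 1757 of all genes. Mllt4, 1600012H06Rik, Dll1 and Chd1 were the 4, and thus were on the side of Igf2r, with sizes of 0.0133 to 0.114. On the log2 odds scale 1600012H06Rik and Chd1 changed sign when some mouse was left out, as did Acat2, Fam120b, Pdcd2 and Qk among the 14.

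**Figure D3:**
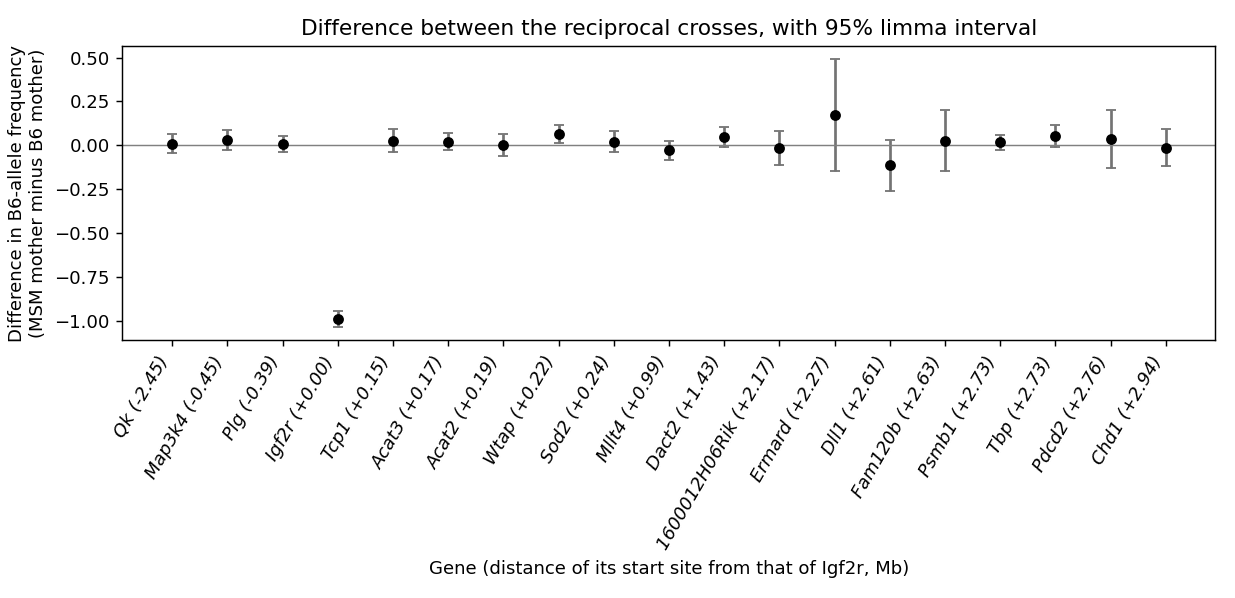
Difference in B6-allele frequency between the crosses (MSM mother minus B6 mother) with its 95% limma interval, for genes in chromosome order, and the distance of each start site from that of Igf2r in Mb. Igf2r stands at -0.992, and the other genes lie between -0.114 and 0.172. The model sets no bounds, so the interval of Igf2r reaches below -1.

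To look for a difference by strain, the same genes were tested for departure of the mean of both crosses from equal use. Of the 19 genes, 2 were called, both toward B6. Of all genes, 22.6% were called toward B6, 13.6% toward MSM and 36.2% in either direction. Acat2 had a mean frequency of 0.583 (log2 odds 0.49, SE 0.06, limma adjusted p = 0.0158), and every mouse was above 0.5. 1600012H06Rik, 2.17 Mb from Igf2r, had a mean of 0.616 with mice from 0.574 to 0.645 (log2 odds 0.68, SE 0.10, limma adjusted p = 0.0223). Without any 1 of the mice neither gene was called. Tcp1 and Wtap had means of 0.498 and 0.482 (limma adjusted p = 0.872 and 0.187).

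**Figure D4:**
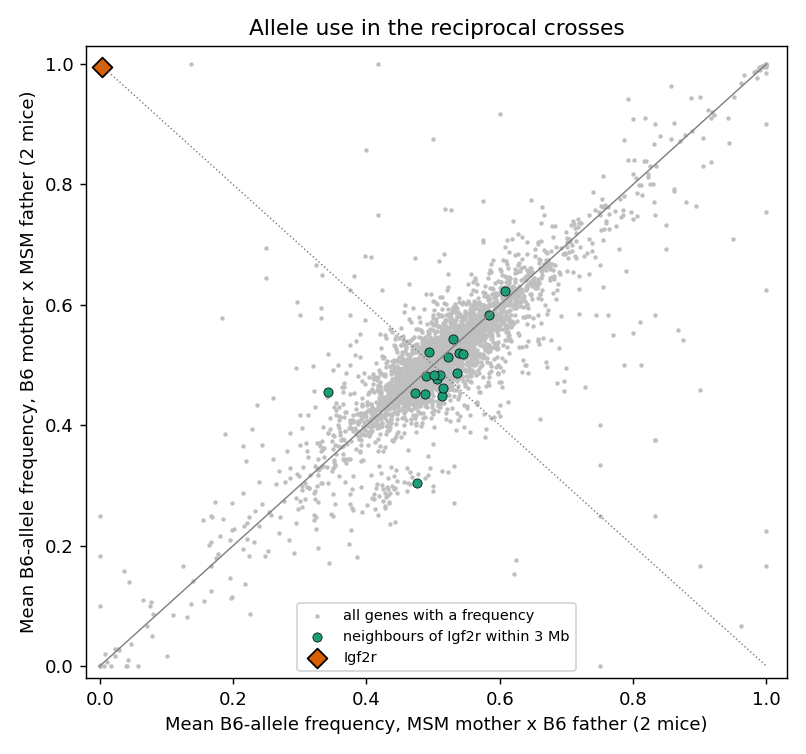
Mean B6-allele frequency of each of the 3632 genes with a frequency, in MSM-mother mice on the x axis and in B6-mother mice on the y axis (2 mice each). Genes on the solid diagonal have the same frequency in both crosses, and parent-of-origin use lies along the dotted one. Igf2r is in the upper left corner, and its 18 neighbors lie near the middle.

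The level of Igf2r overlapped between the crosses. Its FPKM was 7.09 and 9.07 in MSM-mother mice and 8.44 and 7.55 in B6-mother mice. The log2 fold change of FPKM + 1 (MSM mother over B6 mother) was 0.01 (SE 0.14, limma adjusted p = 0.993), with an interval from 0.785-fold to 1.29-fold. Its mean FPKM of 8.04 ± 0.887 (SD, n = 4) exceeded that of 38.0% of listed genes. On this per-length scale Plg, with a mean of 1283 ± 148, stood far above Igf2r, and Map3k4, with a mean of 5.38 ± 0.636, stood below it. These SDs span both crosses. Plg had 1169 and 1142 in MSM-mother mice and 1417 and 1404 in B6-mother mice (limma adjusted p = 0.628), with an SD within a cross of 18.6 and 9.28.
Tcp1 had an FPKM of 58.3 and 54.6 in MSM-mother mice and 56.1 and 61.2 in B6-mother mice, and Wtap had 12.8 and 12.1 against 12.9 and 12.3. For both genes the crosses overlapped (limma adjusted p = 0.905 and 0.971). Mrpl18, a protein of the large mitochondrial ribosomal subunit, was the named gene with an FPKM and no frequency. Its FPKM was 54.2 and 49.4 in MSM-mother mice and 38.9 and 41.8 in B6-mother mice, without overlap. The crosses also did not overlap in Sod2 and Tbp, higher in MSM-mother mice, and in Map3k4, Plg, Dact2, 9030025P20Rik and Ermard, higher in B6-mother mice. The share of all genes without overlap in FPKM was not counted. The Mrpl18 fold change of 1.28 (95% interval 1.02 to 1.60) had a limma p of 0.0375 before adjustment and 0.546 after it. None of the 22 genes passed the threshold for expression, which 0.0455% of all genes passed (8.87% with a p under 0.05 before adjustment). Before adjustment 2 of the 22, Mrpl18 and Dact2, had a p under 0.05. Dact2, a regulator of Wnt signaling 1.43 Mb from Igf2r, had the lowest p of the 22, with an FPKM of 7.28 and 5.14 against 9.72 and 8.56 (log2 fold change -0.51, SE 0.17, limma adjusted p = 0.512).
The summed FPKM of the listed Kupffer cell markers (3 of 5) was 95.3 to 104 in MSM-mother mice and 126 to 133 in B6-mother mice, and that of sinusoidal endothelial markers (5 of 5) was 113 to 119 and 123 to 131. Stellate cell markers (3 of 5) summed to 112 to 128 and 90.6 to 109, and the only listed cholangiocyte marker of 5, Spp1, was at 9.51 to 14.6. The part of these differences in the FPKM values above was not tested, and in whole liver, fewer cells of a type and less RNA per cell cannot be told apart.

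**Figure D5:**
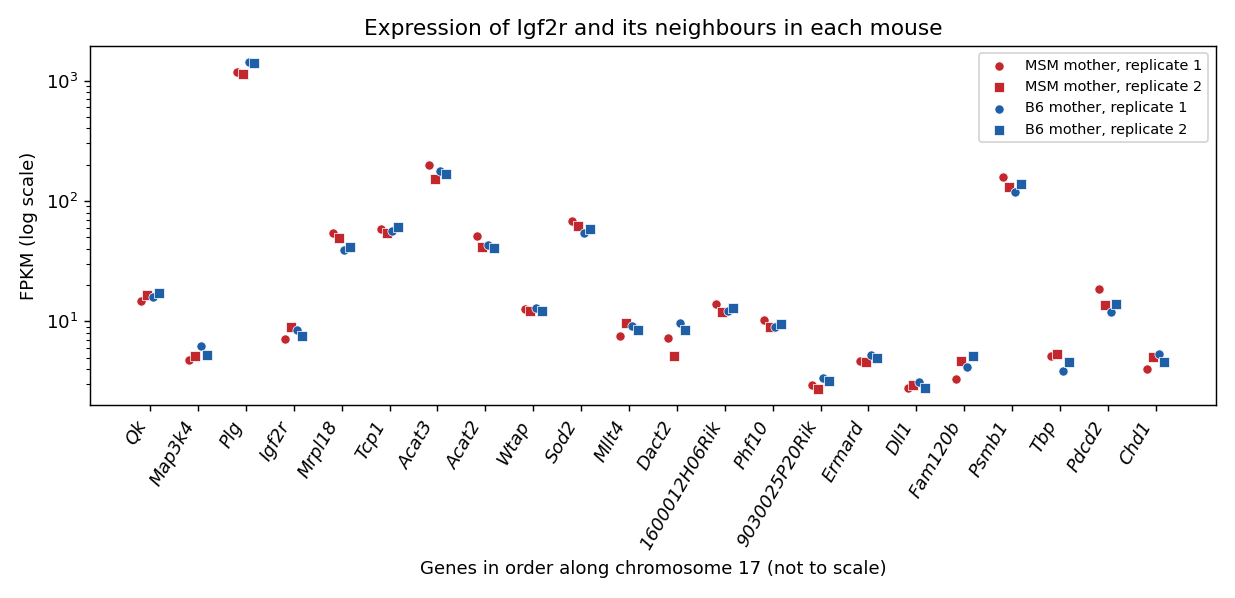
FPKM of 22 listed genes within 3 Mb of Igf2r, Igf2r included, on a log axis, in chromosome order, with a point for each of the 4 mice. Igf2r lies at 7.09 to 9.07 in all mice. The crosses do not overlap in Mrpl18, nor in Map3k4, Plg, Sod2, Dact2, 9030025P20Rik, Ermard and Tbp.

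Mrpl18 and Tcp1 start close together on opposite strands. The 237 bases between their RefSeq start sites (chr17:12916092-12916328, GRCm38.p6, plus strand) are shown because this stretch precedes the start of 2 of the 4 listed members, with CG in capitals.
Mrpl18 to Tcp1: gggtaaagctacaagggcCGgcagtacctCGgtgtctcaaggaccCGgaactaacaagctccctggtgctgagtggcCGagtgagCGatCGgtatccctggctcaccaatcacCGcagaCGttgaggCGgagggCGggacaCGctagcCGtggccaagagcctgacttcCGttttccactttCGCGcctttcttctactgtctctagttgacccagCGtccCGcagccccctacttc
It held 17 CG, which 22.4% of promoters of that length reached. In the 250 bases before the start, Wtap had 29 to 41 CG over its 3 RefSeq start sites, whereas Slc22a2, Slc22a3 and Mas1, which were not among the listed genes, had 6, 5 and 2. Over all RefSeq promoters the median was 16 for listed genes and 4 for the others. In GENCODE M21 the spans of Mrpl18 and Tcp1 overlap by 645 bases and those of Tcp1 and Acat3 by 1255 bases, so their reads could be shared.

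Genes that work with the receptor were followed on a list of 42 genes of lysosomal enzyme sorting and IGF signaling, of which 38 were listed and 16 had a frequency. None of the 16 was called between the crosses (limma, adjusted p under 0.05, which 0.0826% of all genes reached), and 1, Ctsz, had a p under 0.05 before adjustment, as did 5.23% of all genes. In Igfbp2 and Igfbp4 the interval of the difference ran from -1.11 to 1.45 and from -1.06 to 0.814. Even a difference like that of Igf2r was thus not detectable in these 2 genes. M6pr, the cation-dependent mannose 6-phosphate receptor, had frequencies of 0.538 and 0.568 in MSM-mother mice and 0.541 and 0.556 in B6-mother mice. Both alleles were used whichever strain was the mother, unlike in Igf2r, and its mean FPKM was 54.1 ± 2.27 (SD, n = 4). Departure from equal use of the strains was called in 4 genes toward B6 (M6pr, the adaptor subunit Ap1g1 and the lysosomal enzymes Gaa and Glb1) and in 2 toward MSM (the retromer subunit Vps29 and the protease Ctsz). The shares over all genes were 22.6% and 13.6%, so these counts lie near the background. Each of the 6 calls was lost under some alternative fit, where the alternatives include fits without each mouse. The expression of none of the 38 differed between the crosses in limma, and 2 (Gaa and Tgfb1) had a p under 0.05 before adjustment. Over all genes the shares were 0.0455% and 8.87%. The median log2 fold change of the list was -0.03, against 0.02 for all genes tested.

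Of a list of 41 imprinted genes, 15 were listed and 7 had a frequency. Igf2r and Meg3 were called in limma and the other 5 were not, against 0.0826% of all genes. Before adjustment 5 of the 7 (Igf2r, Meg3, Impact, Gnas and Slc22a18) had a p under 0.05, against 5.23% of all genes. The Meg3 call was lost when frequencies were limited only within 0.001 of 0 and 1 (limma adjusted p = 0.462), and Impact was called on the frequency itself (limma adjusted p = 0.0133). The 3 genes with the difference most like that of Igf2r over the 4 mice were Meg3 (-0.990), a maternally expressed long noncoding RNA, Eef2 (-0.864) and Sec14l2 (-0.583). Meg3 had 0 and 0.00929 in MSM-mother mice and 0.989 and 1 in B6-mother mice. Eef2 had 0.273 and 0 against 1 and 1, and Sec14l2 had 0.833 and 0 against 1 and 1, so in both genes the MSM-mother mice differed among themselves. The intervals of the difference were wide, -1.16 to -0.565 in Eef2 and -1.49 to 0.320 in Sec14l2. The number of assigned reads behind these fractions is unknown, and whether few reads gave these values was not tested. Both alleles were used in Slc22a18 (0.462 and 0.455 in MSM-mother mice against 0.537 and 0.529) and Gnas (0.389 and 0.407 against 0.557 and 0.594), genes of other imprinted domains. Their limma adjusted p was 0.829 and 0.601. In Impact the paternal allele was the one used, and the paternal share was 91.0% to 97.9%, compared with at most 0.751% in Igf2r.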

How the data were processed

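Liver poly(A) mRNA of 4 female F1 mice was sequenced, 2 per reciprocal cross, and the cross was taken from the titles. The authors used Trim Galore!, then Tophat2 on the SNP-masked mm10 genome, SNPsplit to part the alleles and Cuffdiff for the counts (versions are not given in the sources used here). The deposited values are FPKM per gene and a fraction, the B6 reads divided by all allele-assigned reads. They hold no read counts, so depth is unknown.

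Fits used limma 3.58.1 in R 4.3.3 over all genes, two-sided, with Benjamini-Hochberg adjustment and a threshold of 0.05. Frequencies of 3632 genes, limited to 0.01 to 0.99, were fitted as log2 odds with a cross term. Intervals came from the same fit on the frequency itself. Expression was fitted as log2(FPKM + 1) with a variance trend (mean FPKM 1 or more), a scale that understates changes of low genes. The fits were also run on simulated data with 200 changed genes. The simulated shift between the crosses was far larger than the differences of the neighbors, so it gave no measure of power for them. P-values rest on the spread between these mice only, with the variance of each gene drawn toward that of all genes. The members and gene lists were chosen with earlier results of these data known, and the limit of 400 kb and the CG counts were chosen after values were seen. Named genes are the members, genes within 3 Mb of Igf2r, the gene lists and the 3 genes with the difference most like that of Igf2r. Neighbors were placed by GENCODE M21, with Mllt4 found there as Afdn. Of the genes in the window, 1 is not reported, and the counts of neighbors leave it out. Sequences came from RefSeq (GRCm38.p6), which held promoters of 8 of the 9 members. Alternatives were other scales, limits, FPKM filters and normalizations, fits blocked by replicate number, and fits without each mouse, where the lone mouse left in a cross was assumed to vary like the others. Python 3.11.15 with pandas 2.3.3, numpy 2.4.6 and matplotlib 3.10.9 was used.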

Additional observations from a re-analysis of the deposited data

Results flagged for a closer look

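The strain of the dominant Igf2r allele differed between the crosses. It was the MSM allele in MSM-mother mice and the B6 allele in B6-mother mice, the maternal allele in each. The difference in B6-allele frequency was -0.992 (MSM mother minus B6 mother, limma adjusted p = 0.0026 on the frequency and 4.8e-04 on the log2 odds), and every mouse of each cross showed it. None of the 18 neighbors described had a difference past the threshold.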

How the results depend on the processing

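The difference of Igf2r kept its direction under every alternative, with limma adjusted p from 2.8e-04 to 0.223. The call was lost with limits within 0.001 of 0 and 1 (-16.36). It was also lost without replicate 2 of either cross, where the difference stayed at -13.26 because of the limits. The number of genes called between the crosses was 3, with 1 at those limits and 0 to 6 without a mouse (159 to 224 at an unadjusted p under 0.05 where it was 0), and no neighbor was called under any alternative. Departures from equal use were called in 1316 genes, 181 to 514 without a mouse. Of genes within 3 Mb, 2 were called, and 0 whichever mouse was left out. Expression calls numbered 4, and 13 to 21 without a mouse, none of them within 3 Mb. With the replicate number as a block, 775 genes departed from equal use, 1 of them within 3 Mb (Ermard, while Acat2 at 0.0569 and 1600012H06Rik at 0.0695 were not called), and 285 differed in expression. Igf2r was called with the block (0.0330). Equal numbers are not said to share a litter or day, and the deviations of the mice with replicate number 1 correlated with r = 0.15 for log2 odds and r = 0.0038 for expression over genes. With 1 Mb in place of 3 Mb, 8 neighbors were left.

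Signs that changed were all of uncalled genes. Shifting each mouse to a common median turned Acat2 to -0.0065 between the crosses, Mllt4 to -0.0077 in the mean, and the expression of Igf2r to -0.019. Without each mouse in turn, the difference between the crosses (log2 odds) ran from -0.0856 to 0.0968 in Acat2, -0.298 to 0.116 in 1600012H06Rik, -0.211 to 0.521 in Fam120b, -0.324 to 0.172 in Chd1, -0.215 to 0.643 in Pdcd2 and -0.0363 to 0.14 in Qk. The mean log2 odds ran from -0.0782 to 0.0490 in Tcp1 and -0.395 to 0.0342 in Pdcd2. The log2 fold change of expression ran from -0.151 to 0.165 in Igf2r, -0.0516 to 0.0202 in Wtap and -0.115 to 0.00953 in Tcp1. The lack of read counts limits all these values, since the depth behind a frequency is unknown.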
